A study of Mus musculus with 2 samples.

Results

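The proliferins are the Prl2c genes of the mouse prolactin family, and Prl2c2, Prl2c3, Prl2c4 and Prl2c5 were looked for by the gene name that each spot of a whole mouse Agilent array carries. The name was found for 2 of these 4 genes, Prl2c3 on 3 probes and Prl2c5 on 2 probes, which made 5 of the 41174 probes and 2 of the 27827 gene names on the array. The genes had been chosen by their log2 ratios on these same arrays, where they were known to be among the lowest. No spot carried the name Prl2c2 or Prl2c4. The array annotation nevertheless listed a Prl2c2 transcript on 4 of the 5 probes, and RefSeq gives Prl2c4 as an older name of Prl2c3. Of the 5 probes, 4 were well above background and were among the 22731 probes tested.

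RNA came from prostaspheres, spheres of epithelial cells grown in Matrigel with dihydrotestosterone, here from the urogenital sinus (UGS) of C57/Bl6J mouse embryos taken at 16 days post conception. In ER-Sox9flox/flox cells, which hold a floxed Sox9 allele pair and ERCre, a Cre recombinase that tamoxifen (TAM) switches on, TAM deletes Sox9. The genotype comparison paired Cy5-labeled RNA of wild-type cells with Cy3-labeled RNA of ER-Sox9flox/flox cells, both given TAM. The treatment comparison used ER-Sox9flox/flox cells for both dyes, with vehicle for Cy5 and TAM for Cy3. TAM was used at 5 μM for 6 days, after 6 days of culture, and all 4 RNAs came from cultures with the androgen. Whether the wild-type cells carried ERCre and how many embryos stand behind each RNA is not given in the sources used here. Each comparison was 1 array, so the pair of arrays measures the same direction, Sox9-expressing over Sox9-deleted RNA, against different controls. The spread between the arrays thus takes in the difference between these controls. Whether the cultures were independent is not given, so this spread cannot be read as biological.

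Proliferins are secreted glycoproteins related to prolactin and growth hormone. In the mouse they are made in large amounts by the trophoblast giant cells of the placenta, and they were first met as transcripts that serum and growth factors induce in growing fibroblasts. They stimulate the migration of endothelial cells and the growth of blood vessels, and they bind the mannose phosphate receptor Igf2r.

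The probes are shown first because near-identical genes can hybridize to one probe, and the sequences show how far the signals can be told apart. In 2 of them the capitals mark where the Prl2c3 probe A_52_P84814 and the Prl2c5 probe A_52_P619248 differ in their shared stretch; the other 3 probes are in lower case throughout.
Prl2c3 A_52_P84814: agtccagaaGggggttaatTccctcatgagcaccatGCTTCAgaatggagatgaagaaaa
Prl2c5 A_52_P619248: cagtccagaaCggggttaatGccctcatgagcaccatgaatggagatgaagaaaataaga
Prl2c3 A_51_P312779: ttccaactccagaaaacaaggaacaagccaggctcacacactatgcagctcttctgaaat
Prl2c5 A_52_P511450: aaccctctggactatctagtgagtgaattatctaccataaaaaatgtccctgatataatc
Prl2c3 A_51_P312780: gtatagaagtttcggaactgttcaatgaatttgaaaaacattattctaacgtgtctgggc

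The first pair covered the same stretch of their 2 genes. Counted from the 5′ end of A_52_P84814, they differed by the substitutions G10C and T20G and by 6 bases, GCTTCA at positions 37 to 42, that only the Prl2c3 probe holds. Over the aligned bases 96.3% were identical, and the longest run without a difference was 18 bases. A_52_P619248 was the only probe whose annotation listed a single one of Prl2c2, Prl2c3 and Prl2c5, with Prl2c1 beside Prl2c5. The Prl2c5 probe A_52_P511450 listed all 3, and each Prl2c3 probe listed Prl2c3 with Prl2c2. One transcript accession listed on 4 of the probes had no match in the RefSeq table, so its gene is not named here. Outside the proliferins, 0 of 41169 other probes shared 20 or more bases with any of the 5 probes, and the longest shared runs were 13 to 15 bases. Only probe sequences were compared and not whole transcripts, so hybridization of other RNA to the 5 probes was not tested. The values below are therefore values of Prl2c probes, and the shares of the genes that a probe lists, Prl2c1 on A_51_P312779 and A_52_P619248 included, cannot be told apart.

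By the array file, in mm9 coordinates, the probes lay in 2 groups on chromosome 13. The Prl2c3 probes were on the minus strand at chr13:12883352-12884285 (A_52_P84814), chr13:12884423-12885595 (A_51_P312779) and chr13:12885635-12889129 (A_51_P312780). The Prl2c5 probes were on the plus strand at chr13:13282901-13282960 (A_52_P511450) and chr13:13282998-13283933 (A_52_P619248). The span was longer than the 60 bases of the probe for 4 of the 5, so these probes match transcript sequence that is interrupted in the genome. They start at bases 527, 340, 241, 363 and 460 of the transcript, in the order given. Exons and introns were not annotated for this build in the sources used here.

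Of the 5 probes, 4 were brighter in Sox9-deleted RNA on both arrays, by 5.20-fold to 17.7-fold, and 1 had no signal above background in any RNA. Because the proliferins were chosen by these ratios, the ratios are given as a description, and no test result is read for these probes. Intensities are given as the scanner read them, in scanner units without correction, with the median of the local background around the spot. The dyes have different scales, and a Cy5 intensity is comparable to a Cy3 intensity only after normalization.

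The Prl2c5 probe A_52_P619248, the one with the fewest other genes in its annotation, read 2457 (local background 18) and 1962 (18.5) in the Sox9-deleted RNA of the genotype and the treatment comparison. In Sox9-expressing RNA it read 192 (47) with wild-type cells and 211 (63) with vehicle. After background correction and normalization within arrays, its log2 ratio of Sox9-expressing over Sox9-deleted RNA was -3.98 and -4.15, with a mean of -4.06 ± 0.12 (SD, n = 2). Its signal was thus 16.7-fold lower with Sox9 on average.

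The Prl2c3 probe A_52_P84814, which shares most of its sequence with that probe, read 1503 (16) and 1244 (15) in the Sox9-deleted RNAs. It read 127 (55) in wild-type and 150 (50) in vehicle-treated cells. The log2 ratios were -3.67 and -3.86, a mean of -3.77 ± 0.14 (SD, n = 2), which is 13.6-fold lower with Sox9. The overlapping pair thus differed in log2 ratio by 0.31 in the genotype and 0.28 in the treatment comparison, and since they could share target RNA they are not independent measurements.

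The Prl2c3 probe A_51_P312779, at another stretch of the transcript, read 1299 (16) and 1088 (16) in the Sox9-deleted RNAs and 134 (54) and 136 (47.5) in wild-type and vehicle-treated cells. Its log2 ratios were -3.42 and -3.77, a mean of -3.60 ± 0.25 (SD, n = 2), or 12.1-fold lower. This probe shares at most 7 bases in a row with any other proliferin probe. It lists Prl2c3 and Prl2c2 transcripts as A_52_P84814 does and was read from the same RNAs, so it is not an independent measurement.

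The Prl2c5 probe A_52_P511450 read 508 (15.5) and 450 (18) in the Sox9-deleted RNAs and 93.3 (48) and 95.6 (60) in wild-type and vehicle-treated cells. Its log2 ratios were the smallest of the 4 in size and differed most between the arrays, at -2.38 and -3.08, with a mean of -2.73 ± 0.50 (SD, n = 2) and 6.64-fold lower. Its Cy5 spots compare with brightest negative control spots of 69.4 and 70.4 in the same images, and the offset of 50 that is added after background correction shrinks ratios of which one side is dim.

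The fifth probe, A_51_P312780 of Prl2c3, was not well above background in any of the 4 RNAs. It read 28.7 and 26.8 in the Sox9-deleted RNAs and 63.2 and 61.6 in the others. All of these are below the brightest of 153 negative control spots of the same dye and array, which read 28.9 in both Cy3 images and 69.4 and 70.4 in the Cy5 images. Its log2 ratios of -0.07 and 0.01 therefore hold no measurement, and no fold is given. This probe lists the same Prl2c3 and Prl2c2 transcripts as A_51_P312779, A_52_P84814 and A_52_P511450, and the reason for its dimness was not tested. The GC content was 35% in it and in A_52_P511450 and 45% in the other 3 probes.

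All 16 values of the 4 brighter probes, over 4 RNAs, lay above the brightest negative control spot of their dye and array, and 0 of their spots were saturated. Signal of the 4 probes was thus present in Sox9-expressing RNA too, at a lower level. On the normalized log2 scale, the level of A_52_P619248 was 7.76 and 7.31 in wild-type and vehicle-treated cells and 11.74 and 11.46 in the Sox9-deleted RNAs. For each of the 4 probes both Sox9-deleted RNAs lay above both Sox9-expressing RNAs. The genes were chosen by these ratios, so nothing is read from this separation. Its share over all tested probes was not counted.

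**Figure D1:**
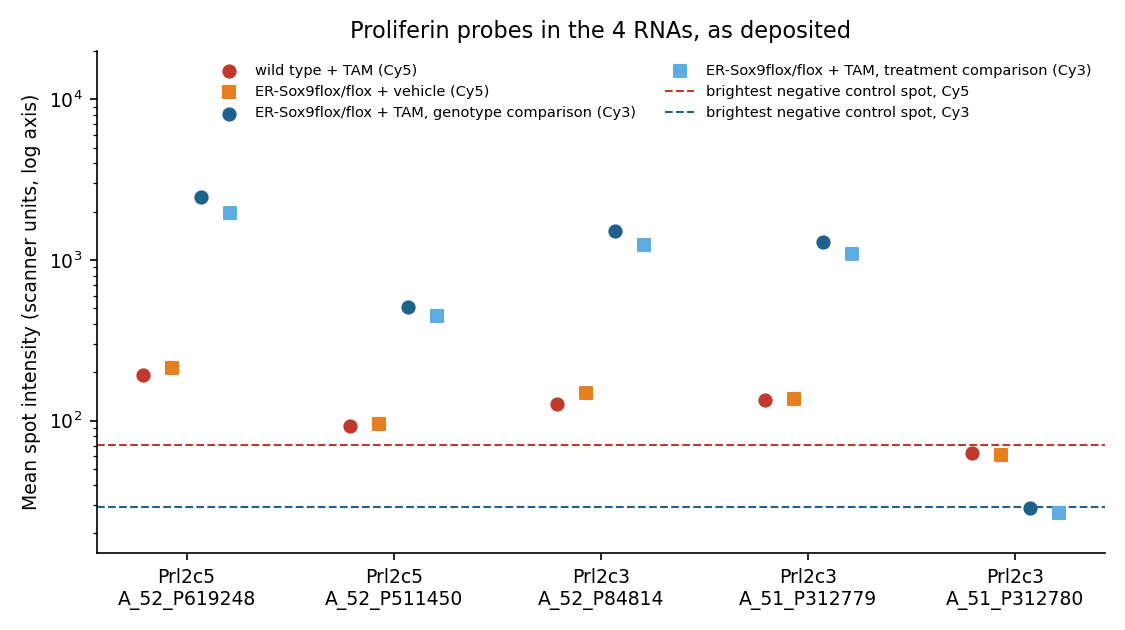
Mean spot intensity (scanner units, log axis, before background correction) of the 5 proliferin probes in each of the 4 RNAs, 1 point per spot, with dashed lines at the brightest negative control spot in Cy5 and Cy3. The other 4 probes read 450 to 2457 in Sox9-deleted RNA and 93.3 to 211 in Sox9-expressing RNA, and A_51_P312780 lies under the line of its dye in every RNA.

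All 4 tested probes were at least 2-fold lower with Sox9 on both arrays, a size that 29 of 22731 tested probes (0.128%) reached in this direction, the proliferin probes included. Ordered by log2 ratio, A_52_P619248, A_52_P84814 and A_51_P312779 held ranks 1, 2 and 3 from the bottom of 22731 probes on each array. A_52_P511450 held rank 13 in the genotype and rank 4 in the treatment comparison. The lowest mean of any probe outside the proliferins was that of Bcl2l15, at -2.67, from -3.26 and -2.07. Among 22731 probes limma called 2 (0.0088%) at an adjusted p under 0.05, and these were A_52_P619248 and A_52_P84814. At least 2-fold on both arrays in either direction were 95 probes (0.418%). Since the same ratios chose the genes, nothing is read from these counts, calls and ranks.

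**Figure D2:**
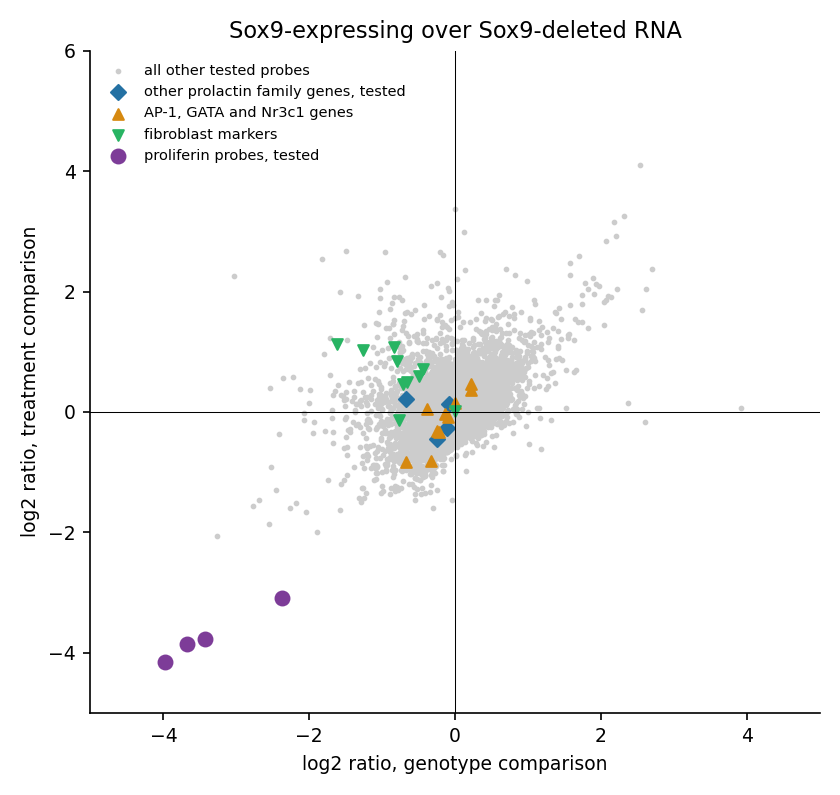
Log2 ratio of Sox9-expressing over Sox9-deleted RNA in the genotype comparison (x axis) and the treatment comparison (y axis), 1 point per tested probe in grey and per gene for the listed groups. The 4 tested proliferin probes lie at the lower left, between -3.98 and -2.38 on the x axis and between -4.15 and -3.08 on the y axis, and the other tested prolactin family genes lie between -0.67 and 0.21 on both axes.

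The size of the ratio depended on how background and dyes were treated, and the direction did not. Over 6 other ways of processing, the mean log2 ratio of each of the 4 probes was between -5.20 and -2.53. The scanner software's own processed signals gave the largest ratios, 25.8-fold to 47.3-fold lower with Sox9 on an array, and drew the 4 probes together, with means from -5.20 to -4.86. With those signals the probe A_52_P511450 had a mean of -4.86 and A_52_P619248 one of -4.95. The gap of 1.33 between the lowest and the highest probe mean thus shrank to 0.35. A_52_P511450 had the highest mean of the 4 under each way of processing, while the lowest was that of A_52_P619248, or of A_52_P84814 with the software's signals. An offset of 10 in place of 50 gave means from -4.37 to -3.33, and the authors' own processed values gave -4.43 to -3.38.

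Which of the 2 comparisons showed the lower proliferin ratios also turned with the processing. With an offset of 50 or of 10, all 4 probes were lower in the treatment comparison. Without background subtraction, with the arrays scaled to one spread, with the software's signals and with the authors' values, all 4 were lower in the genotype comparison. With the arrays centred on their median, 3 of the 4 were lower in the genotype comparison. The wild-type and the vehicle-treated control therefore cannot be ordered by their proliferin signal.

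**Figure D3:**
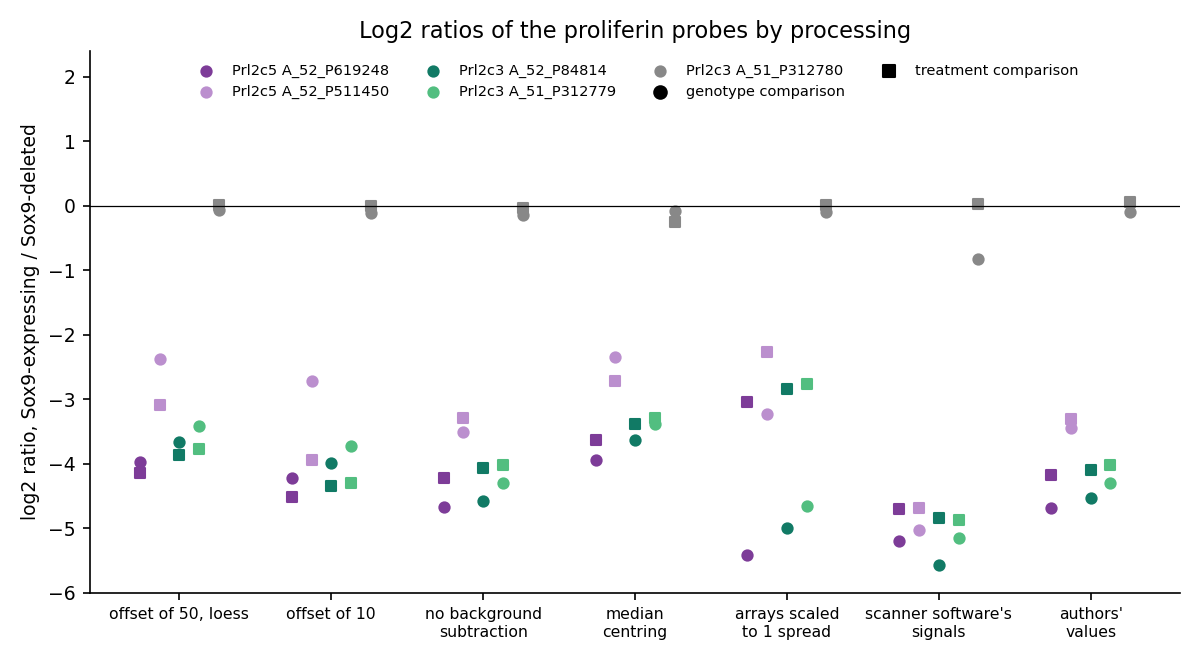
Log2 ratios of the 5 proliferin probes (colours) in the genotype comparison (circles) and the treatment comparison (squares) under 7 ways of processing. The 4 tested probes lie between -5.56 and -2.27 under each of them, while the circles lie above the squares in some and below them in others, and A_51_P312780 lies near 0 except at -0.83 with the scanner software's signals.

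The rest of the family was compared to see whether prolactin-related genes moved as a group. Of 24 listed genes, Prl, the other placental members and Gh (growth hormone), 22 were on the array by name, with 25 probes. Prl2c1, a Prl2c gene that was set in this list, was not found by name. The proliferin probes A_51_P312779 and A_52_P619248 list a Prl2c1 transcript, so its signal may be part of theirs. Of the 22 genes, 16 were not well above background in any RNA. The pituitary hormone genes Prl and Gh and the placental lactogen gene Prl3b1 were among these 16, whose log2 ratios reached at most 0.27 in size on either array. Only 4 of the genes outside the proliferins could be tested, and limma called 0 of them at an adjusted p under 0.05, against 0.0132% of 15131 genes. That share is made up of Prl2c3 and Prl2c5 alone, which were chosen by their ratios. At an unadjusted p under 0.05 limma counted 1 of the 4, against 19.5% of all genes, and the methods' t-test counted 0, against 8.8% of all genes. At least 2-fold on both arrays were 0 of the 4, against 0.535% of all genes in either direction and 0.159% with the lower value in Sox9-expressing RNA. Their median log2 ratio was -0.21, against 0.00 over all genes tested. Prl3d1, Prl6a1 and Prl8a9 passed the filter on both arrays only through Sox9-deleted RNA, where a high level gives a negative ratio. The limma count at an unadjusted p was 0 when all 4 RNAs had to be well above background. Nothing is therefore read from this median and these counts.

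Prl8a9 had log2 ratios of -0.25 and -0.44 (limma adjusted p = 0.204). Its mean was -0.35, and it was -0.70 with an offset of 10, -0.72 without background subtraction, -0.79 with the authors' values and -3.51 with the scanner software's signals, and limma's adjusted p over all ways of processing ranged from 0.0774 to 0.657. With the software's signals its mean was thus below that of A_52_P511450 as processed with an offset of 50, while the proliferin probes had -5.20 to -4.86 by the same signals. Prl8a9 was well above background in Sox9-deleted RNA alone, where its level was at least 1.27-fold higher. Prl6a1 was likewise measured in Sox9-deleted RNA alone, at least 1.14-fold higher there, with log2 ratios of -0.11 and -0.27 (limma adjusted p = 0.343), a mean of -0.19 that became -1.66 with the software's signals (limma adjusted p = 0.171). These bounds take, for the dim RNA, the higher of the probe's own level and the lowest level that was well above background. They come from levels per dye, which a dye bias can shift since no array has the dyes swapped.

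The placental lactogen gene Prl3d1 had log2 ratios of -0.08 and 0.13 (limma adjusted p = 0.901), and its mean changed sign with 2 of the other ways of processing. Prl8a2, the decidual prolactin-related gene, had opposite signs on the arrays, -0.67 and 0.21 (limma adjusted p = 0.653). Prl3a1 and Prl3d2 were well above background in the vehicle-treated RNA alone, with log2 ratios of 0.06 and 0.90 for Prl3a1 and of 0.03 and 0.04 for Prl3d2. On the arrays processed with an offset of 50, no tested family gene outside the proliferins thus had a log2 ratio under -0.67, but for Prl8a9 and Prl6a1 the size rests on the treatment of background.

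The listed receptor genes, Prlr, Ghr, Igf2r and M6pr, were all tested. Of these 4, limma called 0 at an adjusted p under 0.05 and counted 1 at an unadjusted p under 0.05, against 19.5% of all genes. Igf2r, the receptor to which proliferin binds, had log2 ratios of 0.06 and 0.01, averaging 0.03 ± 0.04 (SD, n = 2; adjusted p by limma 0.833). The prolactin receptor gene Prlr had -0.21 and -0.35 (limma adjusted p = 0.230). The growth hormone receptor gene Ghr had opposite signs on the arrays at its brightest probe, -0.11 and 0.64, and at A_51_P499854 and A_52_P680941. Its probe A_52_P633550 was above 0 on both, at 0.08 and 0.20. M6pr, the smaller mannose phosphate receptor, had -0.22 and -0.05 at its brightest probe while its other 2 probes were above 0 on both arrays.

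Factors known to act on proliferin genes were read from a list of 10, all tested: the AP-1 genes of the Jun and Fos families, the glucocorticoid receptor gene Nr3c1, and Gata2 and Gata3, which act in trophoblast. limma called 0 of the 10 at an adjusted p under 0.05 and counted 6 at an unadjusted p under 0.05, 4 with lower and 2 with higher values, against 19.5% of all genes, whereas the methods' t-test counted 0. The median of the list was -0.13. Jund had log2 ratios of -0.67 and -0.84, and averaged -0.75 ± 0.12 (SD, n = 2; adjusted p by limma 0.105). Fosl1 had -0.33 and -0.82 (limma adjusted p = 0.204), and Fosl2 had 0.22 and 0.47 (limma adjusted p = 0.224). Jun, the first gene of the list, had 0.22 and 0.36 (limma adjusted p = 0.227). Junb had -0.25 and -0.32, and its mean was 0.16 when the arrays were centred on their median, a setting that moved the median of all tested probes of the treatment comparison to 0.38. The AP-1 genes thus held log2 ratios of both signs, none of them near the size of the proliferin ratios.

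The 2 genes share a promoter of almost the same sequence, which is shown because both genes had probes that were lower with Sox9. The stretches are the 250 bases before the start of each gene, from RefSeq on GRCm38.p6, at chr13:12800080-12800329 on the minus strand for Prl2c3 and chr13:13182466-13182715 on the plus strand for Prl2c5, written in the direction of the gene. The capitals mark an AP-1 match (TGANTCA) and a GATA match (AGATAA or TGATAA).
Prl2c3: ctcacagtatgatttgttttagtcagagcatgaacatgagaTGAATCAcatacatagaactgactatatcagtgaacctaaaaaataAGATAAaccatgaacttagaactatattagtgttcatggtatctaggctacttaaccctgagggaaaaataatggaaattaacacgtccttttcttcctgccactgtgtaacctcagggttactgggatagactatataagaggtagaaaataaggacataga
Prl2c5: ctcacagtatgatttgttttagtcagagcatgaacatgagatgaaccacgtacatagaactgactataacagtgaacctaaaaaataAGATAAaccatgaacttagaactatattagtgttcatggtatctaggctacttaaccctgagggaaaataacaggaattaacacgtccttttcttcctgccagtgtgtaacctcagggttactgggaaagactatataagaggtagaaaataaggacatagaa

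Of 249 aligned bases 241 matched (96.8%), with 8 substitutions and 1 base that only Prl2c3 holds. Positions were counted from the 5′ end of the Prl2c3 stretch. The substitution T46C falls within the AP-1 letters at positions 42 to 48, so that TGAATCA, 209 bases before the start of Prl2c3, has no counterpart in these letters in Prl2c5. The GATA letters AGATAA stand 163 bases before the start of both genes. Motifs were searched on both strands of the window that RefSeq's table gives, 250 bases before to 50 after the start, and the AP-1 letters were found in 7.81% and the GATA letters in 18.6% of 32851 mouse promoters.

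Neither promoter held the letters searched for SOX factors (ACAATG or ACAAAG, in 28.6% of promoters), for the glucocorticoid receptor (its full element, in 0.0396%, or the single site AGAACA, in 19%) or for a TATA box (TATAAA, in 13.6%). For the TATA box only the exact letters TATAAA were searched, and both printed promoters hold the letters tatataag near the end of the stretch. The absence of a TATA box is thus not shown. A match of letters does not show that a factor binds, and a missing match says only that these letters are not in this window. The arrays hold no measurement of binding.

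Probes around the proliferins on chromosome 13 were read to see whether the lower signal extended along the chromosome. Within 2000000 bases of the proliferin probes, which span 400582 bases, lay 56 other probes, of which 30 were tested. At least 2-fold lower on both arrays were 0 of the 30, and 0 were at least 2-fold higher on both. Lower on both arrays were 8, against 32.6% of all tested probes, and higher on both were 11, against 34.6%, with a median of the means of 0.00. limma called 0 of them at an adjusted p under 0.05 and counted 3 at an unadjusted p under 0.05, against 17.6% of all tested probes, and the methods' t-test counted 4, against 8.49%.

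Between the Prl2c3 and the Prl2c5 probes lay 3 further probes. One of these, AK031369, was tested and had log2 ratios of -0.04 and -0.29, and the other two were dim. The first named gene before the group was Ero1lb, at 180481 bases, with -0.17 and -0.16. The first one after it was Gpr137b, at 166960 bases, whose spot was marked as an outlier in the genotype comparison and dropped, so that it has the single value -0.84 from the treatment comparison and no test. The lowest mean of the tested neighbours was -0.49, at a Lyst probe with opposite signs of -1.24 and 0.25. The highest was 0.98, at a probe of A630043P06 with 1.04 and 0.93.

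**Figure D4:**
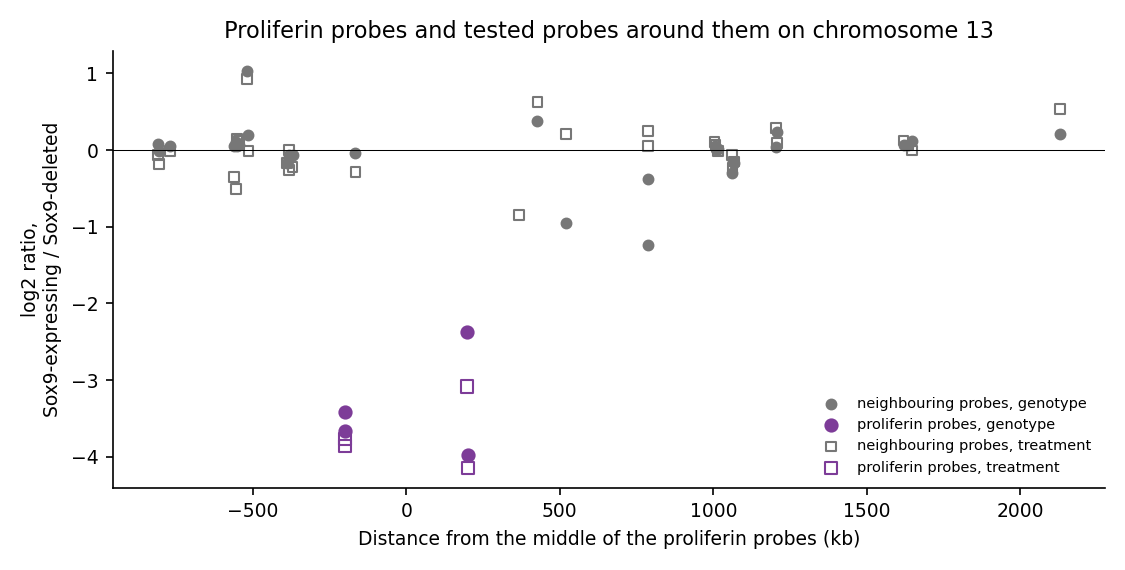
Log2 ratio of Sox9-expressing over Sox9-deleted RNA against the distance from the middle of the proliferin probes (kb) for the proliferin probes (purple) and the tested probes around them (grey), with filled circles for the genotype and open squares for the treatment comparison. The proliferin probes lie between -4.15 and -2.38, and no neighbouring probe lies under -1.24.

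The genes whose pair of log2 ratios lay nearest to that of the proliferins were found by Euclidean distance over the 2 arrays, from the median of the proliferin genes, -3.83 and -4.01. They were Bcl2l15 (distance 2.02), the acute-phase gene Saa3 (2.49), the keratin gene Krt23 (2.66), Cyp2b13 of the cytochrome P450 family (2.78) and the transcript NAP113912-1 (2.79). Saa3 had log2 ratios of -2.56 and -1.87, and Krt23 had -2.77 and -1.57. The 4 proliferin probes themselves lay at distances of 0.21 to 1.72 from it.

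Markers of cell types that could carry proliferin transcripts were read beside these ratios. Of 18 trophoblast and placenta markers on the array, 1 was tested, and 15 were not well above background in any RNA, among them the defining genes Hand1, Ascl2, Tpbpa, Cdx2, Eomes and Plac1. Gcm1, a gene of the placental labyrinth, was well above background in 2 RNAs, both of the treatment comparison, and Rhox6 in 1. The tested one was Elf5, which epithelia also express, with -0.18 and 0.68. The summed normalized level of the list was 1670 in wild-type and 1829 in vehicle-treated cells, and 1700 and 1735 in the Sox9-deleted RNAs of the genotype and the treatment comparison. Since 15 of the 18 markers were not well above background, this sum is mostly background and the offset. Its overlapping ranges are therefore not read as trophoblast content. In bulk RNA, more cells of a type and more RNA per cell cannot be told apart.

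Fibroblast markers, 10 of 10 tested, had opposite signs on the arrays for 8, such as the collagen genes Col1a1 with -1.26 and 1.03 and Col3a1 with -1.63 and 1.13. Lower on both arrays was 1, against 32.6% of all tested probes, and higher on both was 1, against 34.6%. The summed level of the list was lowest in wild-type cells (30380) and highest in vehicle-treated cells (80707), with 54530 and 47569 in the Sox9-deleted RNAs. The proliferin probes were low in both of the Sox9-expressing RNAs, and the part of fibroblasts in their signal was not tested.

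Of 10 endothelial markers 7 were tested, and their summed level was 2779 and 3695 in wild-type and vehicle-treated cells and 3202 and 3451 in the Sox9-deleted RNAs. The defining gene Pecam1 was not well above background in any RNA. Of 6 macrophage and leukocyte markers 3 were tested, and Ptprc, Emr1 and Itgam were not well above background in any RNA. Cd68, a lysosomal gene of macrophages, had -0.69 and -0.77 (limma adjusted p = 0.0979). Cd14 had -1.04 and -0.05, and Csf1r had opposite signs of 0.03 and -0.12. The summed level of the list was 2214 and 3208 in Sox9-expressing and 3996 and 3523 in Sox9-deleted RNA. This sum takes in the markers that were not well above background, so it is not read as macrophage content.

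Epithelial markers were all tested, 8 of 8, and the basal genes Krt5, Krt14 and Trp63 were at least 2-fold higher with Sox9 on both arrays, with log2 ratios of 2.13 and 1.91 for Krt5. Over all genes, 0.535% were at least 2-fold on both arrays in either direction. Higher on both arrays were 5 of the 8 markers, against 34.6% of all tested probes. Lower on both were 2, against 32.6% of all tested probes. These were the luminal keratin gene Krt18 with -0.28 and -1.01 and the cadherin gene Cdh1 with -0.31 and -0.32. Krt8, the other luminal keratin gene, had 0.01 and -0.74. The summed level of the list was 407400 and 328090 in Sox9-expressing and 226090 and 268600 in Sox9-deleted RNA. The cultures thus held transcripts of these epithelial genes, as labelled, and also those of the fibroblast markers. The basal markers had ratios opposite to those of the proliferins, while Krt18 and Cdh1 had ratios of the same sign. In none of the 5 marker lists did limma call a gene at an adjusted p under 0.05, while the counts at an unadjusted p under 0.05 were 0 for trophoblast and for fibroblast, 1 for endothelium, 1 for macrophages and 6 for epithelium, with 0, 0, 1, 1 and 4 by the methods' t-test. Over all genes these shares were 19.5% by limma and 8.8% by the methods' t-test. The part of any cell type in the proliferin ratios was not tested.

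**Figure D5:**
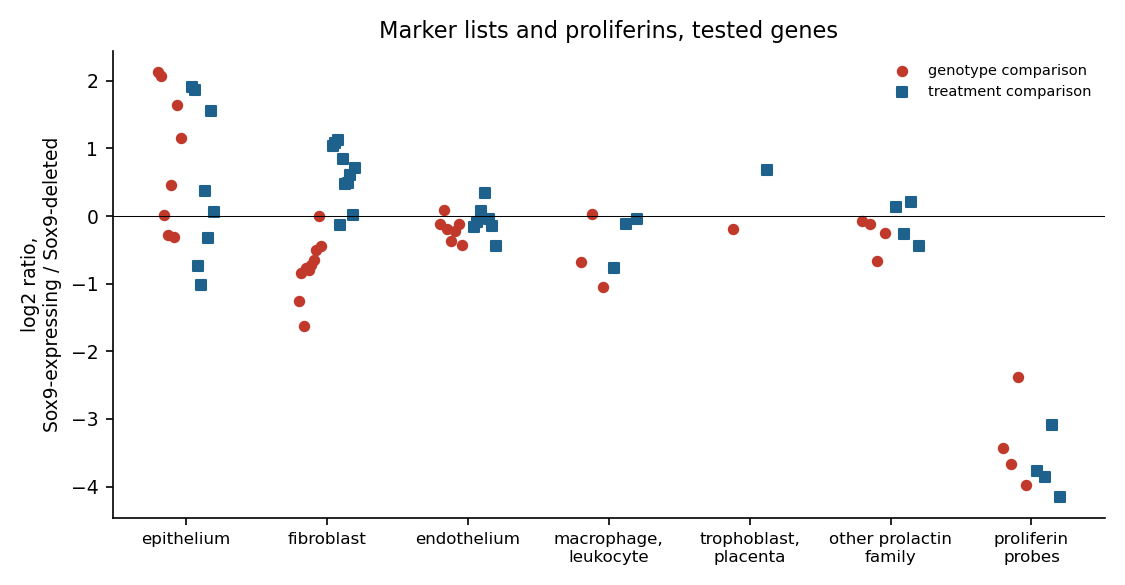
Log2 ratios of the tested genes of 5 marker lists, of the other prolactin family genes and of the 4 tested proliferin probes, in the genotype comparison (red circles) and the treatment comparison (blue squares). The proliferin probes lie at or below -2.38 on both arrays, and no tested gene of the marker lists lies under -1.63.

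The assignment of the RNAs rests on titles, treatments and dyes of the labels. The source names, which give SOX9 for each Cy5 RNA and Ctrl for each Cy3 RNA, were not used. If SOX9 there meant the RNA with the deletion, the proliferins and all other genes would change direction. As a check, 2 of the 3 Sox9 probes were higher in the RNA taken as Sox9-expressing, with log2 ratios of 2.69 and 2.37 for one and of 1.18 and 1.27 for the other, and the third was lower on both, with a mean of -1.11. The Sox9-expressing RNA carried Cy5 on both arrays and 0 arrays had the dyes swapped, so an effect of the dye on a probe cannot be told apart from that of Sox9. The arrays lay on 1 slide, with 53.9% and 56.1% of probes well above background in Cy5 and 55.2% and 56.2% in Cy3.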

How the data were processed

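Per the file headers, the authors scanned 2-colour Agilent arrays (design 014868, build mm9) with Feature Extraction 10.5.1.1 and deposited, for each spot and dye, the mean intensity and the median intensity of the local background without correction, processed intensities after background subtraction and dye normalization, and log10 ratios, which were not used here. The authors also deposited processed log2 ratios of Cy5 over Cy3, whose steps are not given in the sources used here.

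From the mean intensities, background was corrected with normexp and an offset of 50 in limma 3.58.1 (R 4.3.3). Control spots (1639 of 45018) were removed and loess normalization was done within arrays. Spots marked as outliers (126 and 130) were dropped, and spots of a probe were averaged. A probe was tested if one dye, Cy5 or Cy3, was well above background on both arrays. Mean log2 ratios were tested against 0 by its functions lmFit and eBayes in a 2-sided test, and p-values were adjusted by the Benjamini-Hochberg method over 22731 probes (1 residual and 2.8 prior degrees of freedom, prior SD 0.119). A gene was read from its brightest tested probe. The code was tested on simulated data. Levels per RNA came from loess and Aquantile. The methods' t-test is a paired 2-tailed t-test, run here on the log2 ratios of the arrays against 0. Tables and plots used Python 3.11.15, pandas 2.3.3, numpy 2.4.6 and matplotlib 3.10.9. Sequences of probes came from the array files and promoters from RefSeq (GRCm38.p6).

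Proliferin probes had 1 spot each per array, and the number of arrays limits the precision; over 167 other probes with several spots, the median SD between spots of an array was 0.0362 and 0.0429. The members and lists were chosen with earlier results of these data known. Named genes are every proliferin probe, Sox9, prolactin family genes well above background in an RNA class on both arrays or past 2-fold on both, up to 4 examples of receptors and regulators, the first named gene on each side, and the 5 genes nearest in pattern. Marker genes, Prl3a1, Prl3d2, further neighbours, Fosl2 and the remaining family genes were named after their values were seen. The methods of the study describe adult prostate as a source of prostaspheres, whereas the labels give the UGS of embryos, which was used here.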

Additional observations from a re-analysis of the deposited data

How the results depend on the processing

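The mean log2 ratio of each of the 4 tested proliferin probes was negative under every alternative run, and its size moved. The median of the 2 proliferin genes was -3.92, and it was -4.27 with an offset of 10, -4.39 without background subtraction, -3.65 with median centring, -4.07 with the arrays scaled to one spread, -5.07 with the scanner software's signals, -4.37 with the authors' values and -2.93 as a mean over all probes of a gene, which takes in the probe at background. With 1 array left out it was -4.01 to -3.83.

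The number of probes that limma called was 2, and it was 0 with an offset of 10, without background subtraction, with scaled arrays, with the software's signals and with the methods' t-test. It was 522 with median centring, 68 with the authors' values and 21 without a filter on dim probes. The number at least 2-fold on both arrays was 95, and it was 148 without background subtraction, 600 with the software's signals, 147 with the authors' values and, on a single array, 382 without replicate 1 (the genotype comparison) and 298 without replicate 2 (the treatment comparison). In these single arrays the rule asks for 1 array instead of both. With 1 array no spread can be estimated, so limma was not run. The other causes were not tested.

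Of the prolactin family genes outside the proliferins, 0 were called in every setting run, and at an unadjusted p under 0.05 the count was between 0 and 2. Of these, Prl8a9 moved most, from -0.35 to -3.51, and Prl6a1 from -0.19 to -1.66, both with the software's signals. The mean of Prl3d1 changed sign, to -0.0053 with scaled arrays and to -0.34 with the software's signals, and so did that of Junb, to 0.16 with median centring. No paired analysis was possible because the design is 1 group of 2 arrays, with no second group to pair by replicate number, beyond the pairing of the Cy5 and the Cy3 RNA that the log2 ratio of each array already holds. Signal near background limits the Sox9-expressing side of the proliferin ratios.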
